A study of Arabidopsis thaliana with 12 samples.

Results

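The cysteine-rich receptor-like kinases (CRKs) of Arabidopsis thaliana were examined as a gene family, taken as 41 named loci. Of these, 39 were listed in the deposited files, which hold 25089 loci in all. Each locus was read through its transcript with the highest mean over the 12 libraries. In 23 members that transcript reached 1 ppm in 3 or more libraries, and these were tested. The other 16 listed members did not reach this level and are given as not expressed at it. CRK1 (AT1G19090) and CRK33 (AT4G11490) were not analysed here. RNA-seq was made from shoots cut in the hypocotyl, harvested at ZT4 from plants 14 days old, all in the Columbia (Col-0) ecotype. All 12 libraries came from plants kept at 22 °C with 16 h of light and 8 h of dark. The groups were sob3-6, labelled a dominant-negative ahl mutant, SOB3-D, labelled an AHL overexpressor, pif4 pif5 pif7, labelled a triple LOF (loss-of-function) mutant (alleles pif4-101, pif5(pil6-1) and pif7-1), and wild-type Col-0, with 3 libraries each. AHL proteins are AT-hook DNA-binding factors, PIFs are phytochrome-interacting bHLH factors, and the design text asks which genes AHLs and PIFs regulate in the juvenile rosette. How many plants made up a library is not given in the labels, so p-values speak only of the scatter among these libraries, part of which may be technical.

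CRKs are single-pass membrane kinases. Their extracellular part carries DUF26 repeats with a conserved pattern of cysteines, and their cytoplasmic part is a serine/threonine kinase. Many members are induced by pathogens, salicylic acid or oxidative stress, and forced expression of some of them causes cell death, stronger resistance or dwarfing in leaves. Most of the genes lie in tandem arrays on chromosome 4. Of the 41 loci, 36 are on chromosome 4, 3 on chromosome 1, 1 on chromosome 3 and 1 on chromosome 5.

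The 250 bases before the annotated gene start are shown for 5 of the tested members, as examples. They are read from the TAIR10.1 genome (RefSeq) on the coding strand, 5′ to 3′. The 5 members include CRK30 and CRK41, which differed most between sob3-6 and SOB3-D (log2 difference -2.35 and 1.49). As a set, however, the 5 are not the members that changed most. Between sob3-6 and SOB3-D, CRK4 and CRK12, which are not shown, differed more (log2 difference 1.27 and 1.01) than CRK11 (0.92). Capitals mark matches, on either strand, to the W-box core TTGAC (the core bound by WRKY factors), to the G-box CACGTG and to the E-box CACATG, both of which PIF proteins can bind. CRK30 lies on the plus strand (window chr4:6963271-6963520), CRK41 on the plus strand (chr4:418077-418326), CRK11 on the minus strand (chr4:12143859-12144108), CRK5 on the minus strand (chr4:12120221-12120470) and CRK18 on the minus strand (chr4:12170081-12170330).
CRK30: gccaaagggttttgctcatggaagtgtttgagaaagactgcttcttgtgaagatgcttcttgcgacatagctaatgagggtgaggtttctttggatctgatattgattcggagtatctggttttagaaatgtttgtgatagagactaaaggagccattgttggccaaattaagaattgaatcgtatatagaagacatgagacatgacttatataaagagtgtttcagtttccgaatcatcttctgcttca
CRK41: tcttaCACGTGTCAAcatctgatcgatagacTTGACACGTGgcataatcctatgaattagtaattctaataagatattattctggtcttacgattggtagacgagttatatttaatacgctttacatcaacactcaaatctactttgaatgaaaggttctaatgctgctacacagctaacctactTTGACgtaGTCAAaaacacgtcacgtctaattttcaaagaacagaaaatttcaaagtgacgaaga
CRK11: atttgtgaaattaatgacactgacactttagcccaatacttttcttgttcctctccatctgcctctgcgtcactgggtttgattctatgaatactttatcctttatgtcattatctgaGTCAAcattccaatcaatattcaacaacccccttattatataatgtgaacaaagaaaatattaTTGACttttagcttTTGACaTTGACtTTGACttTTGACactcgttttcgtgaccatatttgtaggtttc
CRK5: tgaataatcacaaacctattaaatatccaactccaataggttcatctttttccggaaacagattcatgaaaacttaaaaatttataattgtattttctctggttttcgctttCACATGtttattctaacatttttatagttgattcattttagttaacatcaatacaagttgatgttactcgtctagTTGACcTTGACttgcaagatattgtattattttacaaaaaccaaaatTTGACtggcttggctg
CRK18: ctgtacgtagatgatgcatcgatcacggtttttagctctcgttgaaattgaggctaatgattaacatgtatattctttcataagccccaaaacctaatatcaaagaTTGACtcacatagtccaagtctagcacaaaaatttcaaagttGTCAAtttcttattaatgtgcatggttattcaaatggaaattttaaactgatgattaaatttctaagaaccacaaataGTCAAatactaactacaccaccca
The CRK30 window holds none of these letters. The CRK41 window holds 2 G-boxes, each overlapping a W-box core, and 4 W-box cores in all. The CRK11 window holds 6 W-box cores, the highest number in any member, and most of them lie close together near the gene start. CRK5 has 3 W-box cores and 1 E-box, and CRK18 has 3 W-box cores.

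Across the 41 members, 30 windows hold at least 1 W-box core, against 44.9% of the windows of all 27443 protein-coding genes. Among the 23 tested members the number is 13, against 44.0% of the 18133 windows of tested protein-coding genes. Among the other 18 members it is 17, and the share over untested genes alone was not computed. CRK41 is the 1 member with a G-box, which 6.49% of all windows hold, and 0.875% of all windows hold 2 or more. CRK4, CRK5 and CRK38 hold an E-box, which is in 11.1% of all windows. At least 6 W-box cores, as in CRK11, are in 0.0182% of all windows. In 7 members the window runs into a neighbouring gene, so these letters are not all intergenic. A match is a string of letters in this window and no measured binding.

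Depth was 10179924 to 12567173 reads in sob3-6, 7637822 to 8877404 in SOB3-D, 13809707 to 14734732 in pif4 pif5 pif7 and 14488308 to 16075498 in Col-0. A value of 1 ppm (ppm is the deposited unit, scaled to mapped reads) stood for 7.64 to 16.1 reads, and 0 reads allow up to 3 reads, or 0.187 to 0.393 ppm, by counting error only. SOB3 transcript averaged 227 ppm in sob3-6 and 196 ppm in SOB3-D, against 0.145 ppm in Col-0, so it was high in both AHL lines. PIF4, PIF5 and PIF7 averaged 77.4, 19.1 and 6.48 ppm in pif4 pif5 pif7, against 139, 193 and 45.2 ppm in Col-0. The 6 shoot markers summed to 47813 to 49681 ppm in sob3-6, below all other libraries, to 51925 to 55868 ppm in SOB3-D, 55020 to 57448 ppm in pif4 pif5 pif7 and 51491 to 53562 ppm in Col-0. RCA (Rubisco activase) was lower in sob3-6 than in Col-0 (log2 change -0.32, limma adjusted p = 1.81e-06). It was the 1 shoot marker called there by limma, where edgeR called 2 lower, and the median change over the 6 was -0.01. RBCS1A and CAB3 also had lower means in sob3-6 than in Col-0, while LHCB2.1, LHCB3 and GL1 had higher ones. In SOB3-D 3 of the 6 rose and 1 fell by limma (11.6% and 14.9% of all tested genes). In pif4 pif5 pif7 1 rose and 0 fell (1.5% and 4.83%). Between the AHL lines 0 of the 6 were higher and 4 lower in sob3-6 by limma (24.8% and 10.9%). There edgeR called 0 higher and 5 lower. The 6 root markers summed to 2.65 to 3.98 ppm in sob3-6, 3.01 to 3.94 ppm in SOB3-D, 2.24 to 3.94 ppm in pif4 pif5 pif7 and 2.68 to 3.24 ppm in Col-0, with IRT1 and RHD6 at 0 in all libraries of sob3-6, SOB3-D and Col-0, and 1 to 8 reads over the 12 libraries for each of IRT1, NRT2:1, RHD6 and SMB. Of the root markers, PHT1;1 was higher (0.69, limma adjusted p = 0.0105) and FRO2 lower (-0.49, adjusted p = 0.0455) in SOB3-D than in Col-0. The part of these markers in the CRK results was not tested. The senescence marker SAG13 stayed at or below 0.338 ppm, and SAG12 was not analysed here. In whole shoots, fewer cells of a type and less RNA per cell cannot be told apart.

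In Col-0, CRK transcripts ranged from undetected to the level of a well-expressed gene. Per kilobase of the longest annotated mRNA, the mean level in Col-0 was highest for CRK21 (29.1 ppm per kb), followed by CRK22 (15.6), CRK40 (11.7), CRK17 (8.41), CRK18 (8.04) and CRK10 (7.5). CRK2 (6.87), CRK3 (6.82) and CRK42 (6.77) lay close behind each other, and no order among these 3 is given. CRK12 (0.682), CRK16 (0.627) and CRK4 (0.48) were the lowest of the tested members after CRK5, which is described apart. The summed level of the 39 members was 363 to 383 ppm in sob3-6, 261 to 303 ppm in SOB3-D, 291 to 311 ppm in pif4 pif5 pif7 and 315 to 323 ppm in Col-0. The family total was thus highest in every sob3-6 library and lowest in SOB3-D, whose range reached into that of pif4 pif5 pif7.

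Levels were tested as log2(ppm + 1) with limma, with p-values adjusted (Benjamini-Hochberg) across every kept transcript, and a member was called at an adjusted p under 0.05. This scale understates changes of genes near or below 1 ppm. CRK5 passed the filter through its 3 sob3-6 libraries alone, so it had to be higher there, and counts are given over the other 22. CRK4 passed with 6 libraries at or above 1 ppm, and CRK14 with 2 such libraries lay just outside. Of the 22, CRK34 alone was called in none of the 4 comparisons.

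In sob3-6 compared with Col-0, 8 of the 22 members rose and 1, CRK30, fell. Of all 18502 tested genes, 9.43% rose and 3.95% fell. The median log2 change was 0.26 over the 22 members and 0.06 over all tested genes. Libraries did not overlap in the higher direction for 12 members (24.4% of all genes) and in the lower direction for 2 (8.84%). The number that rose, 9 with CRK5, was 4 after median-of-ratios scaling and 4 after quantile normalization, where 39.2% and 46.5% of all calls were higher, against 70.5% in the deposited ppm. It was 5 without Col-0 replicate 2 and 5 without sob3-6 replicate 2.

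CRK10, whose transcript is induced by salicylic acid and pathogens and whose gain-of-function form dwarfs plants, was at 20.8, 30.0 and 29.7 ppm in sob3-6, against 18.4, 16.0 and 18.1 ppm in Col-0. Every sob3-6 library lay above every Col-0 library, with the sob3-6 libraries themselves widely spread. The log2 change was 0.58 (SE 0.11, limma adjusted p = 0.000611). CRK11, its pathogen-induced neighbour with the 6 W-box cores, was at 8.9, 7.37 and 6.6 ppm in sob3-6, against 5.54, 5.55 and 4.42 ppm in Col-0. These groups did not overlap either, and the change was 0.48 (SE 0.13, adjusted p = 0.012), although the call was lost without sob3-6 replicate 1 and without Col-0 replicate 3 (adjusted p = 0.0857 to 0.0882). CRK2, a kinase that phosphorylates the NADPH oxidase RBOHD and acts in callose deposition, was at 21.5, 20.5 and 22.1 ppm in sob3-6, against 18.1, 15.2 and 16.2 ppm in Col-0. It rose by a log2 change of 0.36 (SE 0.09, adjusted p = 0.0102), and 2 left-out libraries, sob3-6 replicate 3 and Col-0 replicate 2, ended the call (0.0516 to 0.0713).

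CRK5, a member whose forced expression causes hypersensitive-like cell death, was at 1.12, 1.08 and 2.15 ppm in sob3-6, against 0.311, 0.187 and 0.207 ppm in Col-0. In reads these were 52 over the sob3-6 libraries and 11 over the deeper Col-0 libraries. All 3 sob3-6 libraries stood above the other 9, and the log2 change was 0.96 (SE 0.19), given with no p because the filter fixed its direction. CRK4, which also causes cell death when forced, was at 1.52, 2.55 and 2.15 ppm in sob3-6, against 1.68, 1.18 and 0.828 ppm in Col-0. These groups overlapped, and CRK4 was not called (log2 change 0.47, SE 0.20, adjusted p = 0.114). The remaining members that rose were CRK3 (0.42), CRK42 (0.30), CRK40 (0.26), CRK17 (0.26) and CRK22 (0.22), with adjusted p between 0.0112 for CRK17 and 0.0281 for CRK22. None of these 5 was called after median-of-ratios scaling or quantile normalization. Single left-out libraries also ended these calls, namely sob3-6 replicate 2 or Col-0 replicate 1 for CRK17, sob3-6 replicate 1 or Col-0 replicate 3 for CRK42, and sob3-6 replicates 2 or 3 or Col-0 replicate 2 for CRK40. For CRK3 they were sob3-6 replicates 2 or 3 and Col-0 replicates 1 or 2, and for CRK22 any library but sob3-6 replicate 3.

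**Figure D1:**
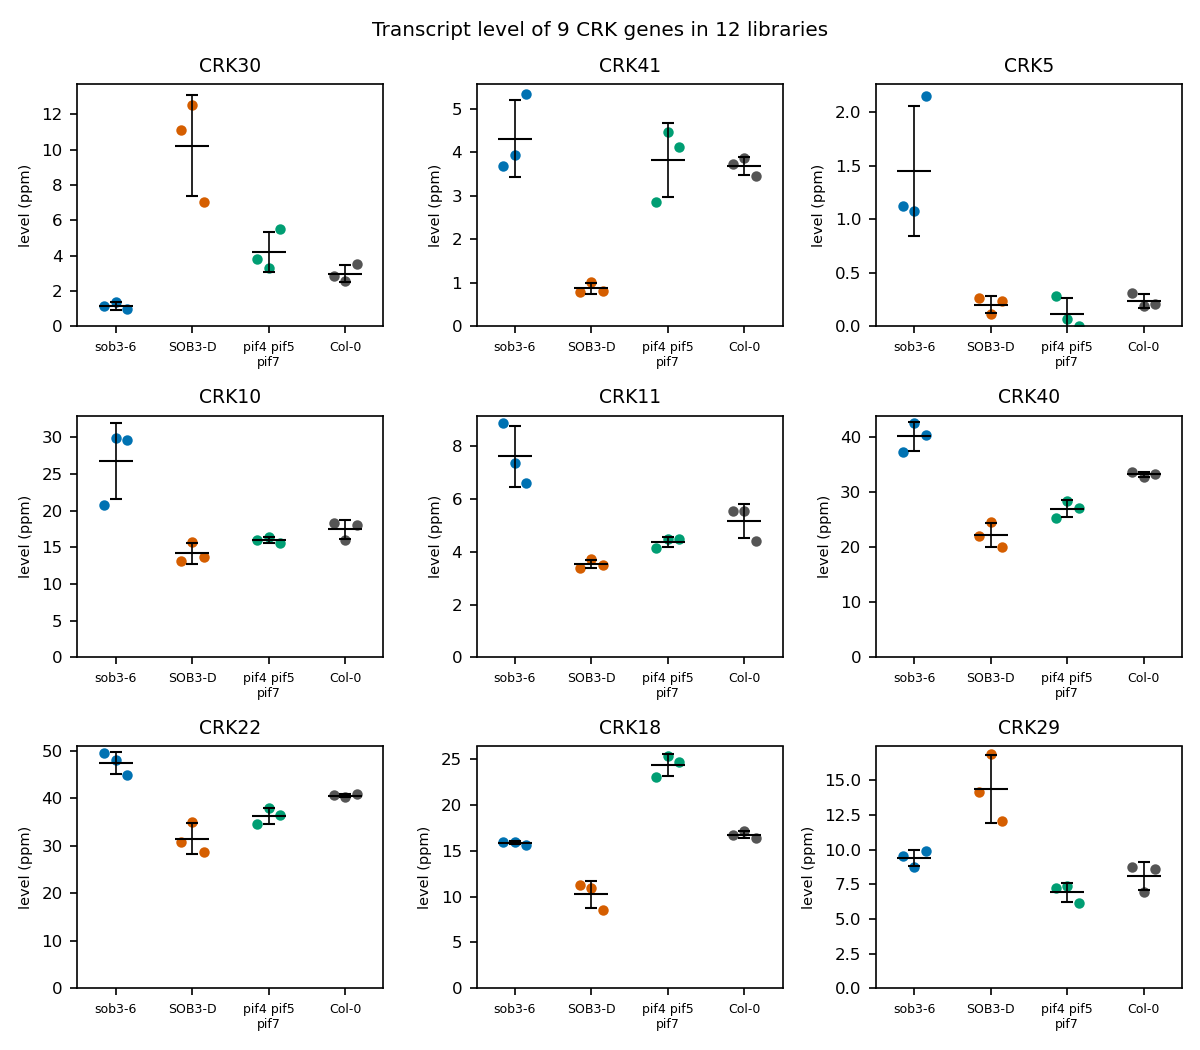
Level in ppm (y axis, linear, from 0) of 9 CRK genes in the 3 libraries each of sob3-6, SOB3-D, pif4 pif5 pif7 and Col-0 (x axis). Points are libraries, black dashes and bars are mean and SD (n = 3). CRK30 was at 7.01 to 12.5 ppm in SOB3-D and at 0.955 to 1.38 ppm in sob3-6, while every SOB3-D library of CRK41 and CRK40 lay below those of the other genotypes.

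In SOB3-D compared with Col-0, 14 of the 22 members fell and 4 rose. Of all tested genes, 14.9% fell and 11.6% rose. The median log2 change was -0.35 over the 22 members and -0.02 over all tested genes. Libraries did not overlap in the lower direction for 13 members (21% of all genes) and in the higher direction for 6 (16.9%). The number that fell was 8 without Col-0 replicate 1 and 9 without SOB3-D replicate 1. SOB3-D libraries were also the shallowest of the series, and the part of depth in these counts was not tested.

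CRK41 fell most, to 0.786, 1.01 and 0.818 ppm in SOB3-D, against 3.73, 3.87 and 3.45 ppm in Col-0. The SOB3-D libraries lay far below those of every other genotype. The log2 change was -1.32 (SE 0.16, limma adjusted p = 1.12e-07), the 51st largest of the 2748 genes that fell. CRK40 was at 22.0, 24.6 and 20.1 ppm in SOB3-D, against 33.7, 32.8 and 33.4 ppm in Col-0, with narrow spread in Col-0. Its change was -0.57 (SE 0.07, adjusted p = 6.52e-07). CRK39, the next CRK gene along chromosome 4, was at 2.88, 3.94 and 3.16 ppm in SOB3-D, against 5.23, 4.74 and 4.49 ppm in Col-0, and its change of -0.43 (SE 0.13, adjusted p = 0.0116) was not called without Col-0 replicate 1 or SOB3-D replicate 1 (0.056 to 0.062).

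Among members tied to cell death or defence, CRK13, whose forced expression raises salicylic acid and resistance to bacteria, was at 4.45, 5.18 and 4.32 ppm in SOB3-D, against 7.34, 7.29 and 7.45 ppm in Col-0. The groups were far apart for their spread (log2 change -0.57, SE 0.13, adjusted p = 0.000954). CRK4 was at 0.655, 0.225 and 0 ppm in SOB3-D, against the Col-0 values above, which is 7 reads in the SOB3-D libraries and 58 in Col-0. Its change was -0.80 (SE 0.20, adjusted p = 0.00256). CRK19, another member that causes cell death when forced, averaged 8.81 ± 1.15 ppm in SOB3-D and 12.6 ± 1.63 ppm in Col-0 (SD, n = 3 each) and fell by 0.47 (SE 0.12, adjusted p = 0.00534). CRK11 was at 3.4, 3.72 and 3.51 ppm in SOB3-D, below all Col-0 libraries, with a change of -0.44 (SE 0.13, adjusted p = 0.0116), which was not called without Col-0 replicate 1 or 2 (0.0585 to 0.0586).

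The most abundant members per kilobase, CRK21 and CRK22, also fell. CRK21 was at 53.8, 58.7 and 51.0 ppm in SOB3-D, against 70.4, 69.6 and 67.2 ppm in Col-0 (log2 change -0.34, SE 0.06, adjusted p = 6.63e-05). CRK22 was at 30.8, 35.0 and 28.6 ppm in SOB3-D, against 40.6, 40.2 and 40.9 ppm in Col-0 (-0.36, SE 0.07, adjusted p = 0.000147). In both genes every SOB3-D library lay below every Col-0 library. CRK18 was at 11.3, 10.9 and 8.53 ppm in SOB3-D, against 16.7, 17.1 and 16.4 ppm in Col-0, again without overlap (-0.67, SE 0.09, adjusted p = 1.22e-06). CRK12 was at 0.524, 1.01 and 0.818 ppm in SOB3-D, against 2.05, 1.06 and 1.86 ppm in Col-0, where the closest libraries were nearly equal (-0.56, SE 0.17, adjusted p = 0.0131). It was not called without SOB3-D replicate 1, Col-0 replicate 1 or Col-0 replicate 3 (0.0661 to 0.093). CRK9, CRK10 and CRK42 were called lower at adjusted p = 0.046, 0.0492 and 0.0491, and none of these 3 was called by edgeR on whole reads or after median-of-ratios scaling. Without SOB3-D replicate 1 or Col-0 replicate 1, none of the 3 was called, nor was CRK9 or CRK10 without SOB3-D replicate 3 or Col-0 replicate 3, or CRK9 or CRK42 without Col-0 replicate 2.

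CRK30 was the member that went furthest the other way. It was at 11.1, 12.5 and 7.01 ppm in SOB3-D, against 2.86, 2.56 and 3.52 ppm in Col-0, a log2 change of 1.47 (SE 0.18, limma adjusted p = 3.97e-07). In sob3-6 it was at 1.12, 1.38 and 0.955 ppm, and fell by 0.89 against Col-0 (SE 0.18, adjusted p = 0.00115). No library of either AHL line overlapped Col-0, and the changes had opposite signs. In pif4 pif5 pif7 it was at 3.79, 3.33 and 5.5 ppm, overlapping Col-0, and was not called (0.37, SE 0.18, adjusted p = 0.234). CRK30 (AT4G11460, chromosome 4, 6963521 to 6967200, plus strand, TAIR10.1) shares no stretch of 50 bases with the annotated mRNAs of other genes. Its tandem neighbours CRK31 and CRK32 had 0 and 4 reads over all 12 libraries, and CRK34 was not called in any comparison.

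CRK28 and CRK29 also rose in SOB3-D. CRK28 is known to associate with the flagellin receptor FLS2 and its co-receptor BAK1, and CRK29 lies beside it. CRK29 was at 14.1, 16.9 and 12.04 ppm in SOB3-D, against 8.77, 6.92 and 8.63 ppm in Col-0 (log2 change 0.75, SE 0.12, adjusted p = 1.3e-05). CRK28 averaged 8.06 ± 0.744 ppm in SOB3-D and 5.66 ± 0.245 ppm in Col-0 (SD, n = 3 each; 0.44, SE 0.12, adjusted p = 0.00656). In neither gene did the groups overlap. The annotated transcripts of these 2 genes overlap on the minus strand, and 17.9% of the 50-base stretches of CRK28 are also in CRK29, so they are not separate observations. CRK16, the fourth that rose (0.42, SE 0.16, adjusted p = 0.047), shares 33.5% of its 50-base stretches with other genes, chiefly CRK17, and its call was lost with a pseudocount of 0.1 (0.0526), by edgeR (0.0518), when only SOB3-D and Col-0 were fitted (0.0688), and without any of the 6 libraries but SOB3-D replicate 3 (0.0833 to 0.13).

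**Figure D2:**
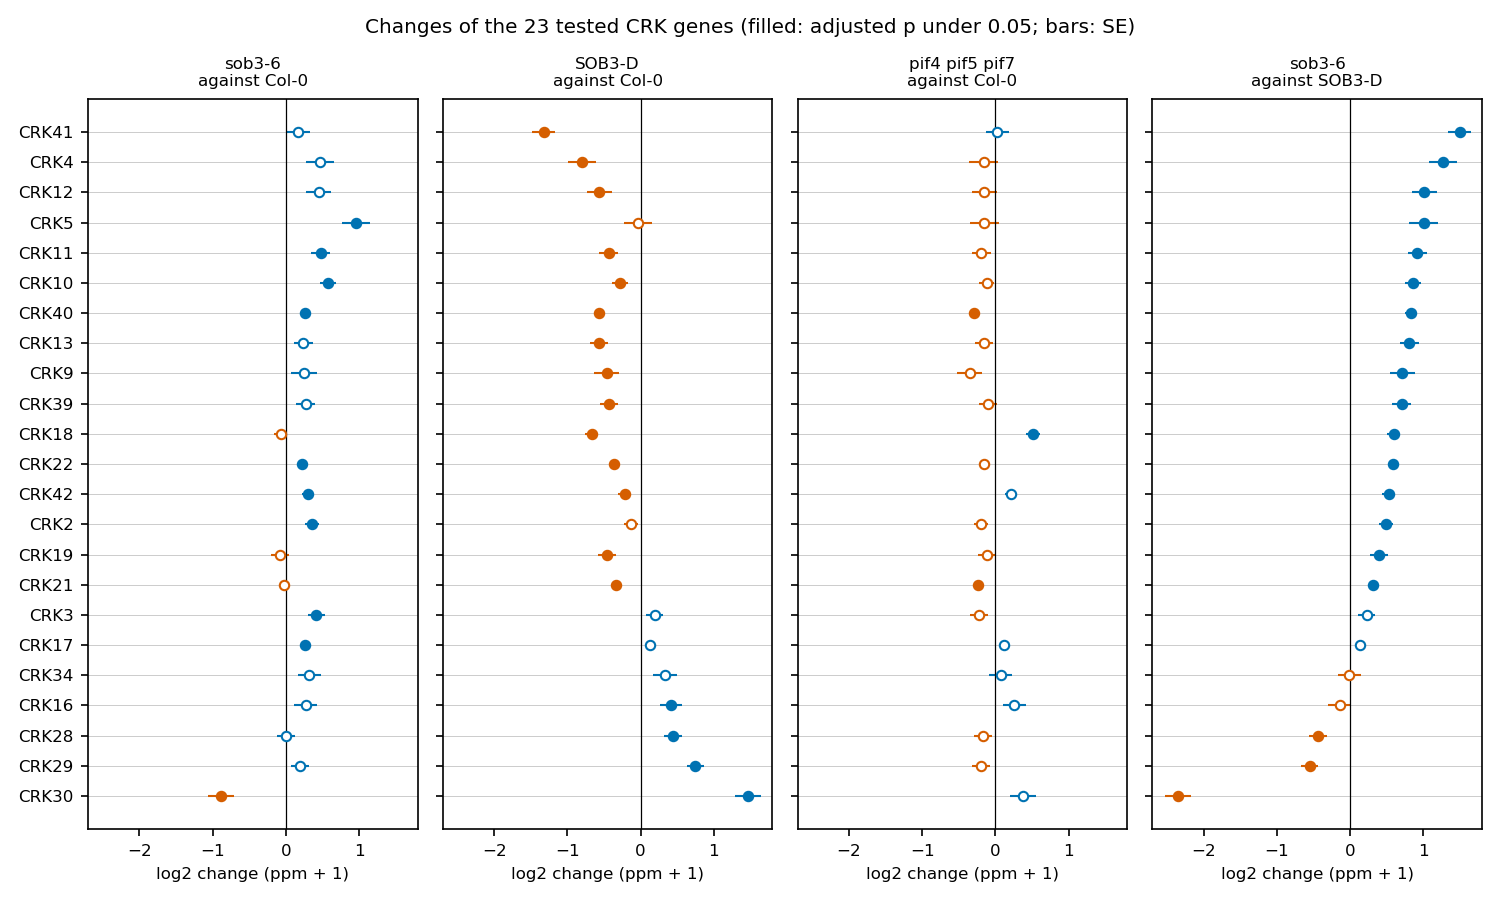
Log2 change on the ppm + 1 scale (x axis, bars are SE) of the 23 tested members (y axis, ordered by the change between the AHL lines) in the 4 comparisons. Filled points passed an adjusted p of 0.05, blue is higher and orange lower. CRK41 heads the order with a change of 1.49 in sob3-6 against SOB3-D, and CRK30 ends it with -2.35.

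The AHL lines were then compared directly, since both carry much SOB3 transcript. In sob3-6 relative to SOB3-D, 15 of the 22 members were higher and 3 lower. Of all tested genes, 24.8% were higher and 10.9% lower. The median log2 difference was 0.55 over the 22 members and 0.09 over all tested genes. Libraries did not overlap in the higher direction for 15 members (30.9% of all genes) and in the lower direction for 3 (13.2%). All 3 lower members, CRK28 (-0.44), CRK29 (-0.55) and CRK30 (-2.35), were those that rose in SOB3-D with CRK16. Under median-of-ratios scaling 47.5% of all calls were higher, against 69.5% in the deposited ppm, and 15 members including CRK5 were called higher. The call of CRK19 (0.39, adjusted p = 0.0147) was lost there, after quantile normalization, by edgeR, and without sob3-6 replicate 3, SOB3-D replicate 1 or SOB3-D replicate 3.

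The difference was largest upward for CRK41, at 3.69, 3.93 and 5.33 ppm in sob3-6, against the 0.786 to 1.01 ppm of SOB3-D (log2 difference 1.49, SE 0.16, limma adjusted p = 7.59e-09). CRK4 followed (1.27, SE 0.20, adjusted p = 7.9e-06), with 72 reads in sob3-6 and 7 in SOB3-D. CRK12 was at 2.64, 2.46 and 2.63 ppm in sob3-6, above all SOB3-D libraries by a difference of 1.01 (SE 0.17, adjusted p = 2.59e-05). CRK10 was at 13.1, 15.8 and 13.7 ppm in SOB3-D, below all 3 of its sob3-6 libraries. CRK11 and CRK10 differed by 0.92 (adjusted p = 1.84e-06) and 0.86 (adjusted p = 6.59e-07), and CRK13, at 9.22, 9.23 and 8.2 ppm in sob3-6, by 0.81 (adjusted p = 8.69e-06). CRK40 was at 37.3, 42.6 and 40.5 ppm in sob3-6, where all libraries lay above those of the other 3 genotypes (0.83, SE 0.07, adjusted p = 3.5e-10). CRK39 was at 5.77, 6.29 and 5.97 ppm in sob3-6 and differed by 0.70 (adjusted p = 7.66e-05). CRK22, at 49.5, 47.9 and 44.8 ppm in sob3-6, differed by 0.58 (adjusted p = 7.06e-08), and CRK21, at 69.2, 71.7 and 63.3 ppm, by 0.32 (adjusted p = 0.000115).

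CRK42 was at 23.9, 22.1 and 22.1 ppm in sob3-6, against 13.9, 16.2 and 16.5 ppm in SOB3-D, with Col-0 between them at 19.6, 18.7 and 16.4 ppm and touching the SOB3-D range (difference between the AHL lines 0.52, SE 0.08, adjusted p = 1.13e-05). CRK2 was at 14.4, 15.2 and 15.3 ppm in SOB3-D, close to the lower Col-0 libraries, and differed between the AHL lines by 0.49 (SE 0.09, adjusted p = 0.000153). CRK29 was at 9.54, 8.74 and 9.87 ppm in sob3-6, below its SOB3-D libraries by 0.55 (adjusted p = 0.000451). CRK5 was at 0.262, 0.113 and 0.234 ppm in SOB3-D, a difference of 1.00 (SE 0.19) whose direction the filter fixed. CRK3, CRK16, CRK17 and CRK34 were not called between these lines.

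In pif4 pif5 pif7 compared with Col-0, 1 of the 22 members rose and 2 fell. Of all tested genes, 1.5% rose and 4.83% fell. The median log2 change was -0.15 over the 22 members and -0.04 over all tested genes. Libraries did not overlap in the lower direction for 4 members (18.5% of all genes) and in the higher direction for 3 (8.52%). The scaling shifts the balance here too, since 23.7% of all calls were higher in the deposited ppm and 48.3% after median-of-ratios scaling, while the member counts were still 1 higher and 2 lower.

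CRK18 rose in pif4 pif5 pif7, to 23.04, 25.3 and 24.7 ppm, against 16.7, 17.1 and 16.4 ppm in Col-0. These libraries lay above those of all other genotypes, and sob3-6, at 15.9, 16.0 and 15.7 ppm, was close to Col-0. The log2 change was 0.51 (SE 0.09, limma adjusted p = 0.00042). CRK40 was at 25.4, 28.5 and 27.2 ppm in pif4 pif5 pif7, below all Col-0 libraries (-0.29, SE 0.07, adjusted p = 0.0128). CRK21 was at 56.9, 62.0 and 56.8 ppm, also below all Col-0 libraries (-0.23, SE 0.06, adjusted p = 0.014). Both calls were lost without pif4 pif5 pif7 replicate 1 and without Col-0 replicate 1. CRK40 was also lost without Col-0 replicate 3, and CRK21 without pif4 pif5 pif7 replicate 3 or Col-0 replicate 2, with adjusted p up to 0.0919 for CRK40 and 0.0774 for CRK21.

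The other fully listed members were not called by limma in pif4 pif5 pif7, and edgeR called CRK42 higher (0.26, adjusted p = 0.048). CRK22 was at 34.5, 37.9 and 36.5 ppm there and CRK42 at 21.8, 21.1 and 20.9 ppm, the first below and the second above all Col-0 libraries. CRK10 was at 16.0, 16.4 and 15.6 ppm and CRK2 at 12.4, 16.9 and 13.8 ppm, both overlapping Col-0. CRK41, with the G-boxes, was at 2.86, 4.48 and 4.13 ppm in pif4 pif5 pif7, around the Col-0 libraries (log2 change 0.03, SE 0.16, adjusted p = 0.949). CRK11 was at 4.15, 4.48 and 4.49 ppm, CRK13 at 7.44, 5.02 and 7.31 ppm and CRK39 at 4.29, 4.41 and 4.56 ppm. CRK29 was at 7.23, 7.4 and 6.16 ppm, CRK4 at 0.93, 1.22 and 0.797 ppm, CRK12 at 1.36, 1.22 and 1.52 ppm and CRK5 at 0.286, 0.0679 and 0 ppm. In each of these 7 genes the pif4 pif5 pif7 range overlapped that of Col-0.

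The largest array, CRK5 to CRK24, spans 74.2 kb of chromosome 4 (12117491 to 12191704, TAIR10.1) with 20 members, of which 12 were tested. In SOB3-D relative to Col-0, 9 of these 12 fell and 1 rose by limma, and of the 11 tested members elsewhere 5 fell and 3 rose. Of all tested genes 14.9% fell and 11.6% rose, and edgeR called 7 of the 12 lower and 0 higher. In sob3-6 relative to Col-0, 4 of the 11 array members other than CRK5 rose and 0 fell by limma, and elsewhere 4 rose and 1 fell, where 9.43% of all tested genes rose and 3.95% fell. At an unadjusted p under 0.05, 5 of the 11 rose and 0 fell, and edgeR called 3 higher and 0 lower. Among the 10 coding genes on each side of the array, 6 were tested, of which 2 rose in sob3-6, and 1 rose and 1 fell in SOB3-D. The array and the other members were not tested against each other. Array members share annotated sequence to differing degrees, with 14.2% of the 50-base stretches of CRK13 found in another gene, all of them in CRK22, and 25.1% for CRK17, while CRK12 and CRK21 share none. CRK10 and CRK11 overlap at their ends on opposite strands.

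**Figure D3:**
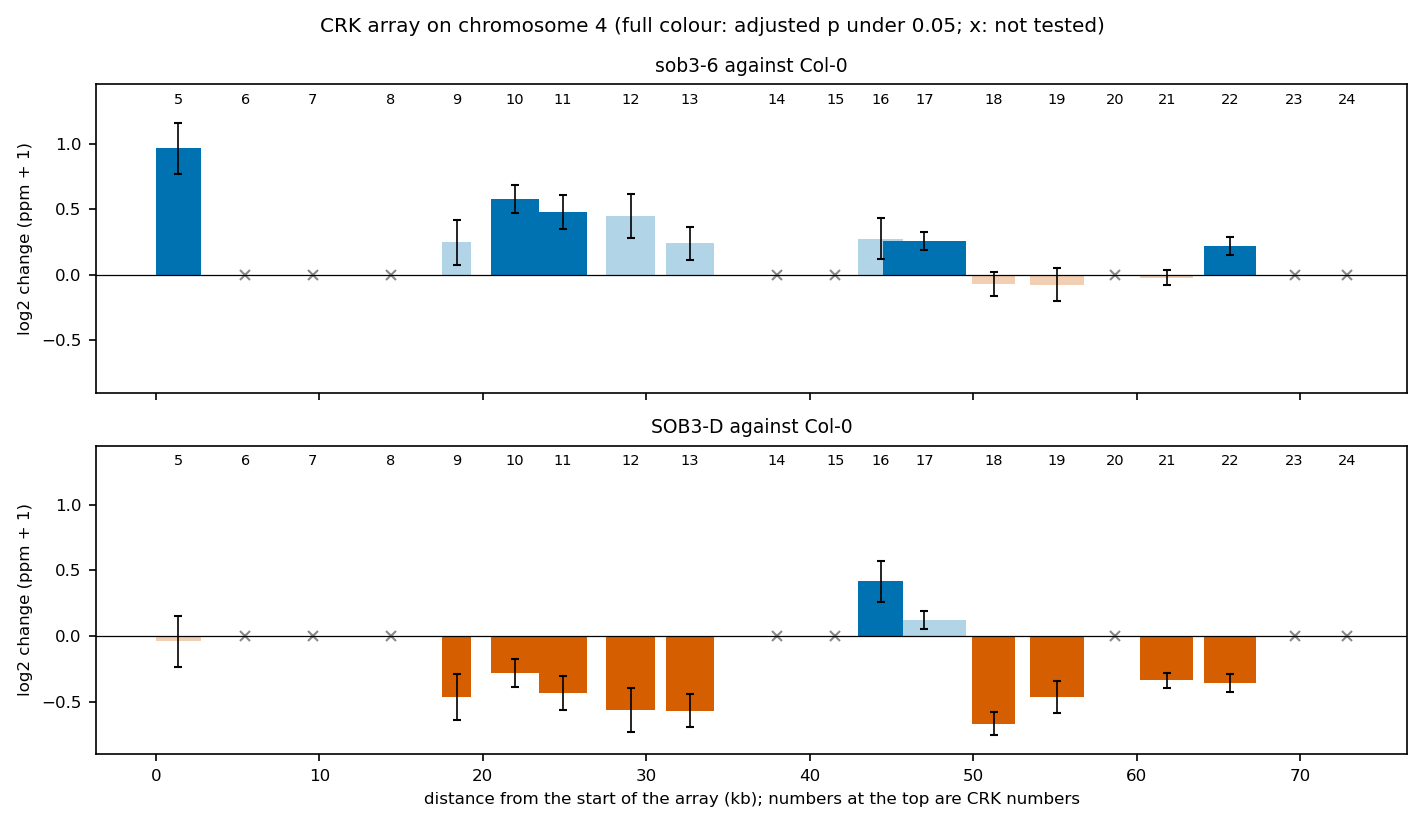
Log2 change on the ppm + 1 scale (y axis, bars with SE) along the array, by distance in kb from its start (x axis), in sob3-6 against Col-0 above and SOB3-D against Col-0 below. Bar width is gene length, pale bars were not called and crosses mark members not tested. In SOB3-D 9 of the 12 tested genes lie below 0 at full colour and only CRK16 lies above 0 at full colour.

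The 16 members under the filter reached at most 1.7 ppm in any library. Their summed level was 5.99 to 8.43 ppm in sob3-6, 3.39 to 5.18 ppm in SOB3-D, 4.21 to 4.86 ppm in pif4 pif5 pif7 and 4.21 to 4.48 ppm in Col-0, so that the sob3-6 libraries stood above all others. CRK14 was at 0.561, 1.28 and 1.67 ppm in sob3-6, 0, 0.113 and 0.234 ppm in SOB3-D, 0.572, 0.271 and 0.724 ppm in pif4 pif5 pif7 and 0.435, 0.374 and 0.345 ppm in Col-0. Its reads over 3 libraries numbered 41 in sob3-6, 3 in SOB3-D and 18 in Col-0. CRK15 had 20 reads in sob3-6, 3 in SOB3-D and 7 in Col-0. CRK6, a member known to protect against extracellular oxidative stress, had 41 reads in sob3-6, 13 in SOB3-D and 32 in Col-0. It shares 23.5% of its 50-base stretches with other members. CRK23 had 24 reads in sob3-6, 5 in SOB3-D and 10 in Col-0. Fitted with no filter, CRK14 (0.61, limma adjusted p = 0.0275) and CRK15 (0.44, adjusted p = 0.0459) were called higher in sob3-6 than in Col-0.

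CRK27 was at 1.7, 0.451 and 0.818 ppm in SOB3-D, against 0.373, 0.249 and 0.483 ppm in Col-0, with overlapping ranges. CRK8 stayed between 0.262 and 1.19 ppm, CRK20 between 0.117 and 0.801 ppm, CRK25 between 0.295 and 0.901 ppm and CRK36, a partner of the immune kinase BIK1, between 0.234 and 0.882 ppm. CRK7, which like CRK6 is linked to oxidative stress, did not exceed 0.435 ppm, and CRK24 and CRK26 did not exceed 0.338 and 0.215 ppm. CRK32 and CRK37 had 4 and 2 reads in all, and CRK31 and CRK38 had 0 reads in every library. At this depth CRK31 and CRK38 were not detected, and CRK32 and CRK37 only by these few reads. This does not show that any of them is silent.

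**Figure D4:**
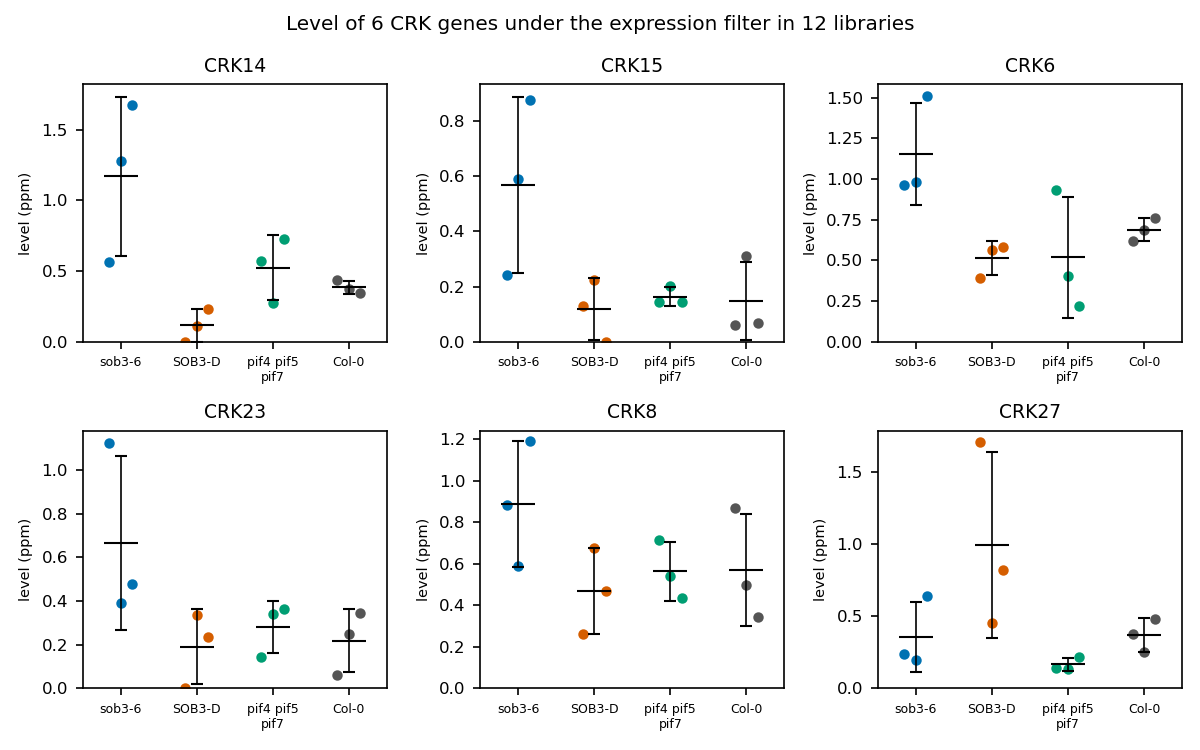
Level in ppm (y axis, linear, from 0) of 6 members under the expression filter in the 3 libraries each of sob3-6, SOB3-D, pif4 pif5 pif7 and Col-0 (x axis). Points are libraries, black dashes and bars are mean and SD (n = 3). CRK14 reached 1.67 ppm in sob3-6, and CRK27 reached 1.7 ppm in SOB3-D.

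Genes of salicylic acid defence and of cell-surface immune signalling, and DUF26 relatives of the CRKs, were counted in the same fit. Of 14 tested salicylic acid defence genes, 6 rose and 0 fell in sob3-6, and 4 rose and 5 fell in SOB3-D, relative to Col-0, with median log2 changes of 0.36 and -0.11 by limma, against 0.06 and -0.02 over all tested genes. Of all tested genes 9.43% rose and 3.95% fell in sob3-6, and 11.6% rose and 14.9% fell in SOB3-D. In sob3-6, 10 were higher and 0 lower at an unadjusted p under 0.05, and edgeR called 5 higher and 0 lower. The 14 genes behind these counts and medians include WRKY54, which reached 1 ppm in its 3 sob3-6 libraries alone. The filter thus fixed the direction of WRKY54 in sob3-6 against Col-0 and against SOB3-D. ACD6, an ankyrin protein that raises salicylic acid, averaged 44.9 ppm in sob3-6 against 10.6 ppm in Col-0 (log2 change 1.93, limma adjusted p = 0.000327). The salicylic acid receptor genes NPR4 and NPR3 also rose in sob3-6 (0.60 and 0.57, adjusted p = 6.62e-06 and 0.000154). In SOB3-D, PBS3, which acts in salicylic acid synthesis, averaged 0.153 ppm against 6.36 ppm in Col-0 (-2.68, adjusted p = 9.46e-13), and ACD6 (-2.28, adjusted p = 2.57e-05) and NPR3 (-0.59, adjusted p = 2.52e-05) fell. Other genes of the list went the other way. ICS1 and EDS5 averaged 27.2 and 8.27 ppm in SOB3-D, against 22.9 and 5.14 ppm in Col-0. EDS1 and PAD4 averaged 28.5 and 10.2 ppm in SOB3-D, against 22.3 and 7.72 ppm in Col-0. Between the AHL lines 8 of the 14 were higher and 1 lower in sob3-6 by limma, and edgeR called 6 higher and 1 lower. Of all tested genes 24.8% were higher and 10.9% lower by limma. Those of the list with the lowest limma p were PBS3 (3.10, adjusted p = 1.8e-14), NPR3 (1.16, adjusted p = 1.09e-10) and NPR4 (0.80, adjusted p = 8.36e-09). ACD6 differed most (4.21, adjusted p = 1.18e-07). In pif4 pif5 pif7, 1 of the 14 fell, PBS3 (-1.01, limma adjusted p = 0.000349), and 0 rose, where 4.83% of all tested genes fell and 1.5% rose.

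Of 12 tested genes of cell-surface immune signalling, 0 were called in sob3-6 and 2 rose and 3 fell in SOB3-D relative to Col-0 by limma. Of all tested genes 11.6% rose and 14.9% fell in SOB3-D. By edgeR 3 of the 12 were higher and 2 lower in SOB3-D, so neither direction prevailed in both tools. In sob3-6, 3 were higher at an unadjusted p under 0.05, and edgeR called 0. FLS2, the flagellin receptor, averaged 7.5 ppm in SOB3-D and 10.7 ppm in pif4 pif5 pif7, against 25.5 ppm in Col-0 (-1.63, adjusted p = 1.01e-10, and -1.17, adjusted p = 1.99e-07). EFR, the receptor of bacterial EF-Tu, fell in SOB3-D (-1.04, adjusted p = 1.04e-05), and RBOHD, the NADPH oxidase that CRK2 acts on, rose (0.33, adjusted p = 0.000179). Between the AHL lines 6 of the 12 were higher and 1, RBOHD, lower in sob3-6 by limma, whereas edgeR called 4 higher and 3 lower. Of all tested genes 24.8% were higher and 10.9% lower by limma. Of 7 tested PDLP genes, whose plasmodesmal proteins also carry DUF26 repeats, 1 fell in SOB3-D, PDLP3 (-0.24, adjusted p = 0.00816), and 0 were called by limma in sob3-6 or in pif4 pif5 pif7. At an unadjusted p under 0.05, 1 was higher in sob3-6 and 1 lower in pif4 pif5 pif7, and edgeR called 0 in both. PDLP3, and PBS3 and FLS2 in pif4 pif5 pif7, are named because they are the single calls of their lists there.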

How the data were processed

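RNA-seq of 12 libraries, 3 for each of 4 genotypes, gave a value for each transcript. The deposited values are a signal that the authors describe as ppm of mapped tags. Per the submitters' processing notes, bcl2fastq, Bowtie 1.2.1 and the TAIR10 genome were used. Libraries were stranded per the labels' protocols, but no source used here says if strand entered the counting, so overlapping genes may share reads. A library's deposited signal sums to 1599902 to 1626178 over all transcripts and to 1063973 to 1068838 over 1 transcript per locus. How reads that match several transcripts were counted is not given in the sources read. Values were whole multiples of 1 read in 100% of cases (tolerance 0.01 reads), so whole reads were recovered.

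Of 32950 transcripts, 25710 (18502 loci) reached 1 ppm in 3 or more of 12 libraries and were fitted with limma 3.58.1 (R 4.3.3) on log2(ppm + 1), with 1 coefficient per genotype and the trend and robust options of its empirical Bayes step (8 residual degrees of freedom). P-values were adjusted over all kept transcripts in each comparison. Every pair of replicates differed beyond counting noise (chi-square over its degrees of freedom, 1.99 to 3.61). Alternatives were another pseudocount, other filters, median-of-ratios and quantile scaling, edgeR 4.0.16 on whole reads, fits of 2 genotypes, adjustment over 1 transcript per locus, a replicate block and left-out libraries. The fits were tested on simulated data. Members and lists were chosen with earlier results of these data known. Values in all 12 libraries are given for the 16 called members with the lowest adjusted p in any comparison, and for other lists the 3 genes with the lowest p where at least 2 were called. Names, positions and windows are from TAIR10.1 (RefSeq), whose gene models may differ from the authors'. The deposited files hold no coordinates.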

Additional observations from a re-analysis of the deposited data

How the results depend on the processing

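Over 1360 member changes refitted under the alternatives, 0 changed sign where either value was called. Part of these could not change sign. With other filters, fits of 2 genotypes, adjustment over 1 transcript per locus or a replicate block, the change equals that of the main fit. Only the p-values could differ there. The sign of CRK5 in sob3-6, set by the filter, is also among them. The calls that held under every alternative in which the gene was tested were, against Col-0, CRK10 higher and CRK30 lower in sob3-6 (CRK5 is set aside, since the filter fixed its direction), CRK28, CRK29 and CRK30 higher and CRK4, CRK13, CRK18, CRK19, CRK21, CRK22, CRK40 and CRK41 lower in SOB3-D, and CRK18 higher in pif4 pif5 pif7. Between the AHL lines, 15 of 16 higher (CRK5 among them) and 3 of 3 lower members held. Members higher in sob3-6 than Col-0 numbered 9 in the deposited ppm, 4 under median-of-ratios scaling and 4 under quantile normalization. For pif4 pif5 pif7, edgeR called 2 members higher, CRK42 added, in place of 1 and quantile normalization 1 lower in place of 2. With no filter, 5 members were lower in sob3-6 than in SOB3-D in place of 3, and 20 were higher in place of 16. The lower members in SOB3-D numbered 8 to 14 with libraries left out, the higher ones in sob3-6 5 to 6, and the lower ones in pif4 pif5 pif7 0 to 2. The cause of these shifts was not tested. A fit with a replicate block called 9 higher and 1 lower member in sob3-6, 4 and 14 in SOB3-D, 1 and 2 in pif4 pif5 pif7, and 17 and 3 between the AHL lines, where CRK3 was gained (adjusted p = 0.0226). Same-numbered libraries correlated at -0.049 to 0.153 in their deviations from the genotype means, with 4 of 18 pairs over 0.1, so the numbers were not taken as pairs. As a hint from the data, 7 of 12 libraries correlated best with their own number. Leaving out CRK5, chosen after seeing the data, lowers the higher counts to 8 in sob3-6 and 15 between the AHL lines. Depth limits the members under 1 ppm, where SOB3-D libraries hold few reads.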
